A study of Mus musculus with 10 samples.

Results

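The lymphocyte and pan-leukocyte genes of the mouse lung were examined in 10 mice. They were Cd79a, Cd79b, Ms4a1, Ltb, Cd3e, Cd3g, Nkg7, Gzma, Ptprc and Coro1a, chosen by symbol as known genes of B cells, T cells and natural killer (NK) cells together with 2 genes of all leukocytes, and all 10 were found among the 24059 gene symbols of the count table. Female C57Bl/6 mice, 14 weeks of age by their labels, ate a high-fat semipurified diet with 19% fat by weight for 8 weeks. In the FO group (n = 5) the fat was mainly menhaden fish oil, a source of n-3 polyunsaturated fatty acids, and in the CO group (n = 5) it was mainly saturated fat of coconut oil, with olive oil added. Both diets contained corn oil and cholesterol, and no group on another diet was analysed here. Airway reactivity to methacholine was measured before the lungs were flushed with PBS and RNA was extracted, so each sample was whole lung of 1 mouse. In such bulk samples, fewer cells of a type and less RNA per cell cannot be told apart.

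B cells recognise antigen with a surface immunoglobulin that signals through Cd79a and Cd79b, and T cells use a receptor whose signalling chains include Cd3e and Cd3g. Cytotoxic T cells and NK cells kill target cells by releasing granules that carry proteases such as granzyme A, the product of Gzma. In lung, lymphocytes lie scattered in the tissue, in the blood of its vessels and, in some settings, in aggregates near the airways whose formation depends on lymphotoxin, to which Ltb contributes a subunit.

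The 10 genes were sparsely counted. The authors deposited raw read counts per gene, and 21.8% to 87.0% of the counts of a mouse fell on Rn45s, the precursor of ribosomal RNA, which left 45177 to 473254 counts for all other genes. A floor of 3 counts per mouse then stood for 0.634 to 6.64 counts per 100000 outside Rn45s. Actb was counted 376 to 2770 times per mouse but Gapdh only 0 to 8 times, so a gene with no count is described only as listed at 0. The nuclear RNA Malat1 took 8.53% of non-Rn45s counts in FO mouse 2, 6.15% in CO mouse 5 and at most 1.05% elsewhere. The lung markers Sftpc, of alveolar type 2 cells, and Scgb1a1, of club cells, had at least 96 and 176 counts in every mouse.

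None of the 10 genes was called different between the diets. Values were scaled to CPM (read counts per 1000000, after TMM scaling of the libraries) and tested with the quasi-likelihood test of edgeR. The default filter on low counts kept 1 of the 10 genes, Coro1a, among 2438 genes, and the other 9 were tested in the same model fitted to all 14161 genes with any count. At an unadjusted p-value under 0.05, 0 of the 10 genes were called by edgeR and 0 by DESeq2, and 0 passed adjustment over all genes. Over all genes with any count, edgeR called 4.15% (0.00706% after adjustment) and DESeq2 0.975%, and edgeR called 2.91% of the genes past the filter (0% after adjustment). The FO and CO mice overlapped for all 10 genes, whereas the groups did not overlap for 0.346% of the genes with any count and 0.41% of those past the filter. For Cd79a, Cd3e, Cd3g and Nkg7 no mouse exceeded the floor of 3 counts, so no fold change is given for these 4 genes. Of the other 6, Ltb, Ptprc and Coro1a had positive and Cd79b, Ms4a1 and Gzma negative log2 fold changes of FO against CO, and the 3 positive ones turned negative when counts were scaled by library size alone, which moved the median of all genes with any count from 0.05 to -0.43. A p-value that misses the threshold does not show that the diets were alike, and the intervals given with each gene (the fold change plus or minus 2 standard errors) were wide.

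**Figure D1:**
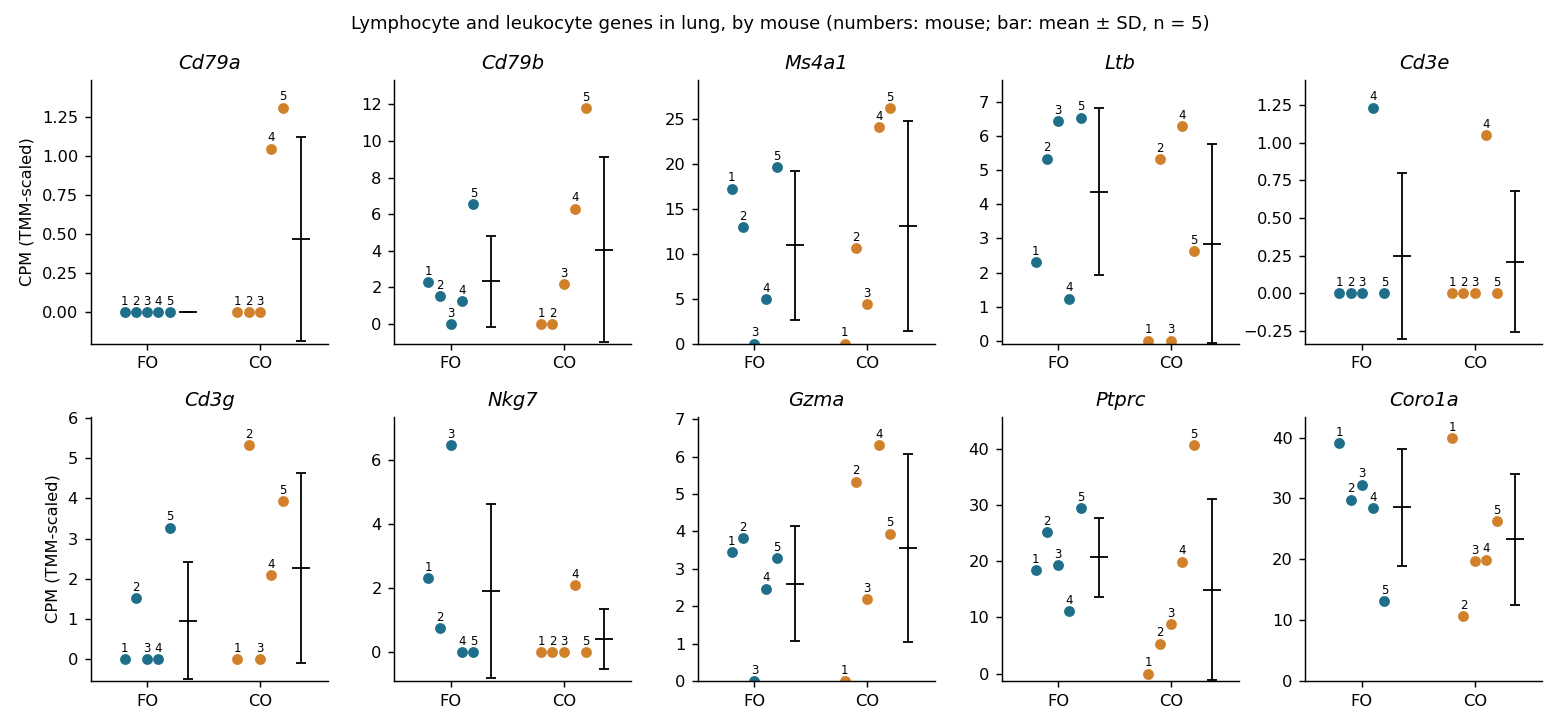
TMM-scaled CPM (vertical axis, a separate scale in each panel) of the 10 genes in the 5 FO mice (blue) and 5 CO mice (orange), with the mouse number at each point and the mean ± SD as a bar. The diets overlap in every panel, and CO mice 4 and 5 are the highest for Cd79a and Ms4a1.

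Coro1a, with 161 counts over all mice, and Ptprc, with 125, carried most of the counts of the 10 genes, and a sequence upstream of a RefSeq start of each is shown for that reason. Both come from RefSeq (GRCm38.p6), lie on the minus strand, are written 5′ to 3′ and were trimmed where GENCODE annotates an exon. Each gene had 2 RefSeq windows, and the window with more motif matches is shown. All 4 windows lie inside the gene as GENCODE draws it, whose 5′ end is farther upstream, at 138175708 for Ptprc and 126707787 for Coro1a. Capitals mark AGGAAG or its complement CTTCCT, a core that ETS factors bind, and TATAAA or its complement TTTATA, the TATA box. The Ptprc sequence spans chr1:138175307-138175555. The Coro1a sequence spans chr7:126704221-126704427.
Ptprc: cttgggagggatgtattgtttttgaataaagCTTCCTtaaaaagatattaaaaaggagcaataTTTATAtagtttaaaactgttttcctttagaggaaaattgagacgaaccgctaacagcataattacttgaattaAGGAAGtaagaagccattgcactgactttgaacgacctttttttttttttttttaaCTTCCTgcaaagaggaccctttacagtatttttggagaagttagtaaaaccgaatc
Coro1a: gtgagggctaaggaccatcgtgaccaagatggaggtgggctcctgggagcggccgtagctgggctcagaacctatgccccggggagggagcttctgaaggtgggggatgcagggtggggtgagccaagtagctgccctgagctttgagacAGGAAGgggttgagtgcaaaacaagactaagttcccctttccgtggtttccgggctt
The Ptprc sequence held 3 matches to the ETS core and 1 to the TATA box, and that of Coro1a held 1 match to the ETS core. The windows not shown held 1 ETS core and 0 TATA boxes for Ptprc and 0 of either for Coro1a. In untrimmed windows of 250 bases upstream, searched on both strands, the ETS core was found in 6 of the 8 members with an entry, against 32.3% of 27025 genes. For Cd79a and Nkg7, 2 of these 6, the only match was lost when the annotated exon was trimmed. The TATA box was found in 1 of the 8, against 14.3% of genes. Matches of letters are a description of these windows and not of binding, and Cd79b and Ms4a1 had no entry.

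Of the 3 B cell genes, Ms4a1 was the most counted. Ms4a1 encodes a B cell surface antigen and lies on chromosome 19 from 11249675 to 11266241 (GRCm38, minus strand, GENCODE annotation), sharing no exon base with another gene. FO mice 1 to 5 had 15, 17, 0, 4 and 6 Ms4a1 counts, and CO mice 1 to 5 had 0, 2, 2, 23 and 20. Both the highest values and a mouse at 0 were therefore found within the CO group, and the FO mice lay inside its range. The means were 11.0 ± 8.30 CPM with FO and 13.1 ± 11.7 CPM with CO (SD, n = 5 each). The log2 fold change was -0.43 (standard error 0.48, interval -1.38 to 0.52, edgeR adjusted p = 0.957), and a two-sided exact permutation test gave p = 0.770. The smallest p that 5 mice against 5 allow in this permutation test is 0.00794.

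Cd79b, a signalling chain of the B cell receptor on chromosome 11 from 106311341 to 106314762 (minus strand), was counted 2, 2, 0, 1 and 2 times in FO mice 1 to 5 and 0, 0, 1, 6 and 9 times in CO mice 1 to 5. CO mice 4 and 5 held 15 of the 23 counts of the gene, and the other 3 CO mice were at 0 or 1. The group means were 2.32 ± 2.50 CPM with FO and 4.06 ± 5.04 CPM with CO (SD, n = 5 each), and the log2 fold change was -1.32 (standard error 0.82, interval -2.96 to 0.32). This was the largest fold change among the 6 genes in size, with an edgeR adjusted p of 0.905 (unadjusted p = 0.107) and a two-sided exact permutation p of 0.611. Its partner Cd79a, on chromosome 7 from 24897381 to 24902197 (plus strand), had 1 count in CO mouse 4 and 1 in CO mouse 5 and was listed at 0 in the other 8 mice. When scaled by library size alone, Cd79a was called lower in the FO group, on these 2 counts.

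Summed over Cd79a, Cd79b and Ms4a1, CO mice 4 and 5 had the highest levels, with 10.7 (95% exact binomial interval 7.21 to 15.3) and 11.7 (7.89 to 16.7) counts per 100000 outside Rn45s. FO mouse 5 followed with 8.76 (3.78 to 17.3) and FO mouse 1 with 6.79 (3.95 to 10.9), while FO mouse 3 and CO mouse 1 were at 0, which allowed up to 7.94 and 8.17. The remaining mice, FO 2, FO 4, CO 2 and CO 3, lay between 2.12 and 4.01. Intervals and floors cover counting error only. The median mouse had 4.01 with FO and 3.59 with CO, whereas the counts added over each group gave 4.47 with FO and 8.40 with CO, since CO mice 4 and 5 supplied 60 of the 65 B cell gene counts of their group.

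**Figure D2:**
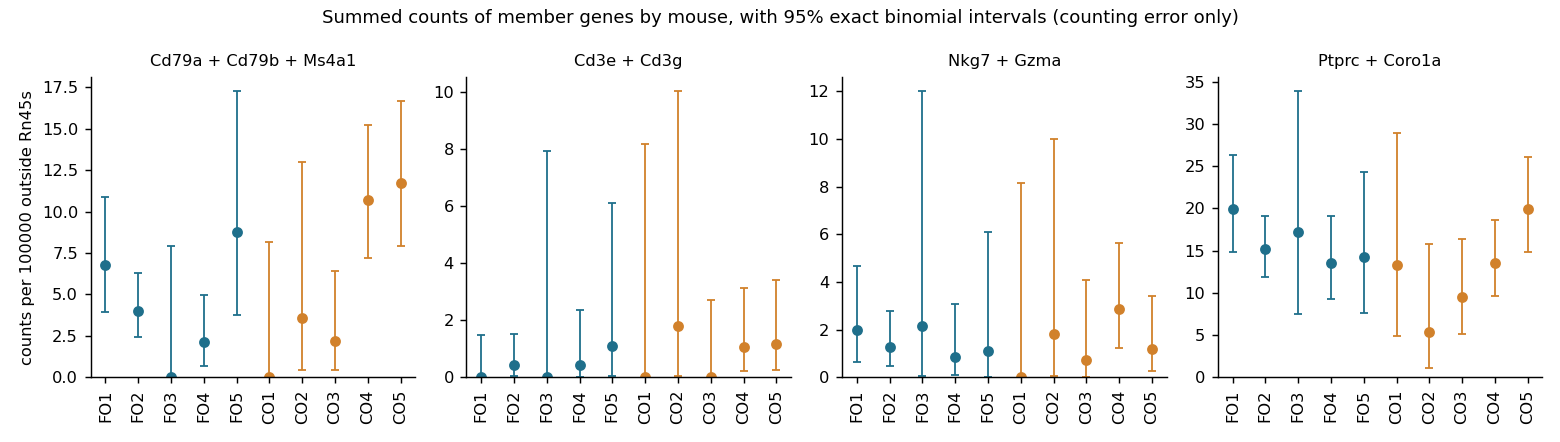
Counts per 100000 outside Rn45s (vertical axis) summed over the B cell, T cell, NK cell and pan-leukocyte genes in each FO mouse (blue) and CO mouse (orange), with 95% exact binomial intervals for counting error only. For the B cell genes CO mice 4 and 5 lie at 10.7 and 11.7, while the other 3 CO mice lie at 3.59 or lower.

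Ltb encodes lymphotoxin beta, a membrane subunit of the cytokine that lymphocytes present to the lymphotoxin receptor, and lies on chromosome 17 from 35194439 to 35196320 (plus strand). The FO mice had 2, 7, 1, 1 and 2 counts and the CO mice 0, 1, 0, 6 and 2, in the order of mice 1 to 5. Every FO mouse had a count, 2 CO mice were at 0, and CO mouse 4 was near the highest FO mice when scaled, at 6.30 against 6.55 CPM in FO mouse 5. The means were 4.38 ± 2.46 CPM with FO and 2.85 ± 2.93 CPM with CO (SD, n = 5 each). The log2 fold change of 0.20 (standard error 0.85, interval -1.50 to 1.89) had an edgeR adjusted p of 0.995 and a two-sided exact permutation p of 0.373. Its sign did not hold without FO mouse 2 (-0.07) or CO mouse 3 (-0.07).

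The T cell receptor chains were close to the limit of detection in every mouse. Cd3g, on chromosome 9 from 44969572 to 44980431 (minus strand), had 0, 2, 0, 0 and 1 counts in FO mice 1 to 5 and 0, 1, 0, 2 and 3 in CO mice 1 to 5. Cd3e, its neighbour on chromosome 9 from 44998740 to 45009627 (minus strand), had 1 count in FO mouse 4, 1 in CO mouse 4 and none in the other 8 mice. Cd3e shares 135 exon bases with an antisense gene, Gm48719, and the strand setting of the counting is not given in the sources used here. Together the 2 genes gave 4 counts with FO and 7 with CO, or 0.364 (0.0993 to 0.933) and 0.904 (0.364 to 1.86) per 100000 counts outside Rn45s. These exact binomial intervals cover counting error only and not the spread between mice, so they do not compare the diets. With at most 3 counts per gene in any mouse, a difference in T cell receptor chains was not detectable at this depth.

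Of the genes of cytotoxic cells, Gzma was the more counted. Gzma, on chromosome 13 from 113093825 to 113100981 (minus strand), had 3, 5, 0, 2 and 1 counts in FO mice 1 to 5 and 0, 1, 1, 6 and 3 in CO mice 1 to 5. After scaling none of the 5 FO mice exceeded the CO median of 3.94 CPM, but the FO mice lay within the CO range of 0 to 6.30 CPM. The means were 2.60 ± 1.54 CPM with FO and 3.55 ± 2.52 CPM with CO (SD, n = 5 each), and the log2 fold change was -0.38 (standard error 0.82, interval -2.01 to 1.25). EdgeR gave an adjusted p of 0.995 and the exact permutation test, two-sided, p = 0.484, and without CO mouse 4 the log2 fold change was 0.04.

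Nkg7, which encodes a membrane protein of cytotoxic granules and lies on chromosome 7 from 43437073 to 43438249 (plus strand), had 2, 1, 1, 0 and 0 counts in FO mice 1 to 5. Among the CO mice CO mouse 4 had 2 counts and the other 4 were listed at 0. The sum of Gzma and Nkg7 ranged from 0.848 to 2.15 counts per 100000 outside Rn45s in the FO mice and from 0 to 2.85 in the CO mice, with CO mouse 4 the highest.

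Ptprc and Coro1a are expressed by lymphocytes and by other leukocytes, so they do not mark 1 cell type. Ptprc encodes the receptor phosphatase that spans the membrane of nearly all white blood cells and lies on chromosome 1 from 138062861 to 138175708 (minus strand). FO mice 1 to 5 had 16, 33, 3, 9 and 9 Ptprc counts and CO mice 1 to 5 had 0, 1, 4, 19 and 31. After scaling the FO mice lay between 11.1 and 29.5 CPM and the CO mice between 0 and 40.7 CPM, so the CO group held both the lowest and the highest mouse. All 5 FO mice lay above the CO median of 8.76 CPM. The means were 20.7 ± 7.00 CPM with FO and 14.9 ± 16.1 CPM with CO (SD, n = 5 each), and the log2 fold change was 0.08 (standard error 0.43, interval -0.77 to 0.94). The edgeR adjusted p was 0.995 and the two-sided exact permutation p 0.508. Without CO mouse 5, a mouse with a high share of Malat1, the log2 fold change of Ptprc was 0.80 and it was still not called.

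Coro1a encodes coronin 1A, an actin-binding protein of leukocytes that T cells need to survive and migrate. It lies on chromosome 7 from 126699773 to 126707787 (minus strand) and shares 26 exon bases with Bola2 on the opposite strand, which had 144 counts in all mice. The Coro1a counts were 34, 39, 5, 23 and 4 in FO mice 1 to 5 and 6, 2, 9, 19 and 20 in CO mice 1 to 5. Coro1a was the only member with a count in every mouse, and its scaled values ranged from 13.1 to 39.1 CPM with FO and from 10.7 to 39.9 CPM with CO. The means were 28.5 ± 9.56 and 23.3 ± 10.8 CPM (SD, n = 5 each), and 4 of 5 FO mice lay above the CO median of 19.9 CPM. The log2 fold change among the 2438 genes past the filter was 0.39 (standard error 0.33, interval -0.28 to 1.05), with an edgeR adjusted p of 0.998 and a two-sided exact permutation p of 0.429.

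**Figure D3:**
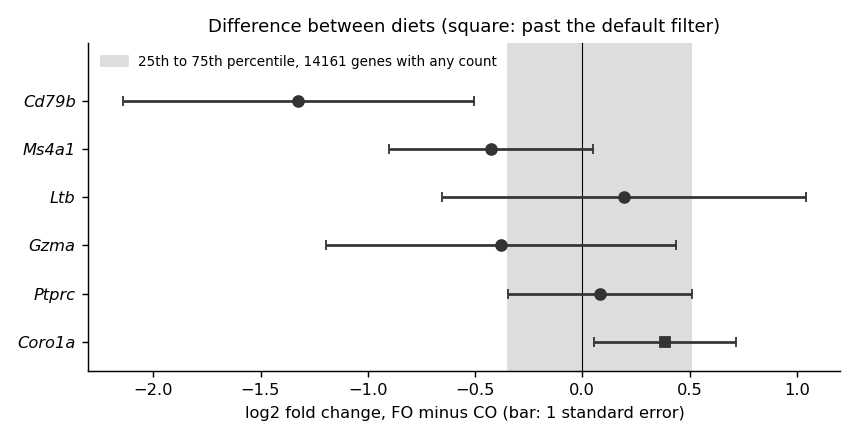
Log2 fold change of FO against CO (horizontal axis) with 1 standard error for the 6 genes above the floor, with circles for genes fitted among all genes with any count and a square for Coro1a, fitted past the filter. The grey band, from -0.35 to 0.51, holds the middle of the distribution of all 14161 genes with any count (25th to 75th percentile), and Cd79b, Ms4a1 and Gzma lie to its left.

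Between the genes, levels were compared per kilobase of exon, as mean CPM per kilobase over the 10 mice. Coro1a had the highest level, 9.31 ± 3.60, and was above the next gene, Gzma, in 9 of 10 mice. Gzma (3.06 ± 2.02), Ltb (2.38 ± 1.76), Cd79b (2.23 ± 2.70), Ms4a1 (1.94 ± 1.56) and Nkg7 (1.27 ± 2.26) followed, and neighbours in this order differed by less than their SD over mice. Ptprc, whose exons span 18313 bases in all, had 0.974 ± 0.662 CPM per kilobase. Cd3g (0.495 ± 0.605), Cd79a (0.162 ± 0.344) and Cd3e (0.056 ± 0.119) had the lowest levels, each with an SD over mice above its mean.

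CO mice 4 and 5 both exceeded the other 3 CO mice in scaled values of the B cell genes Cd79a, Cd79b and Ms4a1 and of Ptprc. For Cd3g, CO mouse 2 was above both, at 5.33 against 2.10 and 3.94 CPM, and for Ltb and Gzma it was above CO mouse 5. Rn45s took 21.8% of the counts in CO mouse 4 and 51.7% in CO mouse 5, the lowest shares of all 10 mice, against 73.1% to 84.1% in CO mice 1 to 3. CO mice 4 and 5 supplied 69.4% of the counts outside Rn45s in the CO group but 90.4% of the counts of the 8 lymphocyte genes, 91.5% of those of Ms4a1 and 90.9% of those of Ptprc. For Coro1a their share was 69.6%, close to their share of all counts. The sum of the 8 lymphocyte genes was 16.7 (95% exact binomial interval 12.3 to 22.3) counts per 100000 outside Rn45s in CO mouse 4 and 14.8 (10.5 to 20.3) in CO mouse 5, against 0, 8.99 and 2.94 in CO mice 1 to 3. In FO mice 1 to 5 it was 9.58, 7.18, 4.30, 3.82 and 13.1. The sum of Ptprc and Coro1a ranged less, from 13.6 to 20.0 in the FO mice and from 5.39 to 19.9 in the CO mice. A separate list of other B cell genes did not set CO mice 4 and 5 apart. Its sum was 28.1 and 18.7 counts per 100000 outside Rn45s in CO mice 4 and 5. In CO mice 1 to 3 it was 15.5, 28.8 and 20.6, and in the FO mice 18.2 to 24.1.

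The summed counts of red cell and platelet genes were low in the same 2 CO mice. Summed over the erythroid and platelet list, of which 5 of 11 genes had a count and all 6 globin genes were listed at 0, CO mice 4 and 5 had 3.56 and 3.51 counts per 100000 outside Rn45s, and the other 8 mice had 22.0 to 42.7. Alas2, the first enzyme of haem synthesis in red cell precursors, had 2 and 4 counts in these 2 mice against 5 to 76 in the others. The platelet gene Pf4 did not set CO mouse 4 apart. Per 100000 outside Rn45s it had 2.49 in CO mouse 4 and 0.78 in CO mouse 5, against 2.94 in CO mouse 3 and 2.96 in FO mouse 2. The part of blood content or of the Rn45s share in the lymphocyte values was not tested. Neutrophil genes, 11 of 13 with a count, summed to 18.4 to 111 counts per 100000 outside Rn45s in the FO mice. The CO mice had 13.3 to 19.8, with FO mouse 2 inside the CO range. Of the 11, edgeR called 6 higher in the FO group, as it did 2.58% of all genes with any count, and DESeq2 called 4. S100a9 was among the genes called by edgeR and passed adjustment over all genes with any count (log2 fold change 2.27, edgeR adjusted p = 2e-05). In the fit past the filter, which S100a9 also passed, it was called (edgeR unadjusted p = 0.00015), but 0 of the 2438 genes passed adjustment. The study had itself picked out S100a8, S100a9, Retnlg and Mmp8 on these mice, so their direction is not independent evidence.

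**Figure D4:**
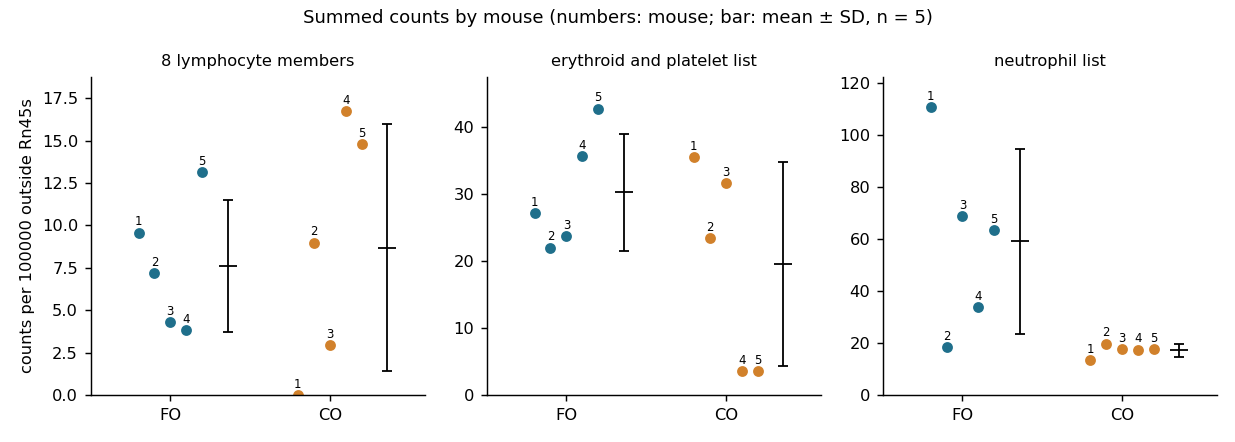
Counts per 100000 outside Rn45s (vertical axis) summed over the 8 lymphocyte genes, the erythroid and platelet list and the neutrophil list in each FO mouse (blue) and CO mouse (orange), with the mouse number at each point and the mean ± SD as a bar. CO mice 4 and 5 are the highest CO mice for the lymphocyte genes and lie at 3.56 and 3.51 for the erythroid and platelet list.

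Other genes of the same cells and pathways were taken from 7 lists, of which 105 of 121 genes had a count and 9 passed the filter. Among genes with any count edgeR called 2 of the 105 higher (2.58% of all genes were) and 2 lower (1.57% of all genes) in the FO group, or 3.81% in both directions, and 0 passed adjustment. Among 13 B cell genes with a count 0 were called, and the median log2 fold change was 0.00, beside 0.05 over all genes. For the 10 of them above 3 counts in a mouse the median was -0.20. The B cell transcription factor Ebf1 had 14.8 ± 3.26 CPM with FO and 10.9 ± 6.69 CPM with CO, and the coactivator Pou2af1 had 17.3 ± 3.58 and 14.5 ± 10.5 CPM (SD, n = 5 each). Of 3 genes of antibody-secreting cells 0 were called, with a median of -0.09, and Mzb1, a chaperone of these cells, had 5.86 ± 1.75 CPM with FO and 5.46 ± 5.18 CPM with CO. The immunoglobulin and T cell receptor constant chains were listed, but their symbols matched no row of the count table, so they were not analysed here. Of 15 listed genes of antibody-secreting cells 4 were found in it, and of 25 listed T cell genes 22 were.

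Of 21 T cell genes 0 were called, with a median log2 fold change of -0.25. For the 11 of them above 3 counts in a mouse the median was 0.15, so its sign depended on genes near the floor. The T cell transcription factor Bcl11b was counted 10, 4, 3, 4 and 5 times in FO mice 1 to 5 and 0, 1, 5, 19 and 4 times in CO mice 1 to 5, so CO mouse 4 was again the highest in counts. The adhesion molecule Cd2 had 6.92 ± 2.02 CPM with FO and 4.06 ± 5.14 CPM with CO. Its counts were 7, 7, 1, 4 and 3 in FO mice 1 to 5 and 0, 0, 4, 1 and 8 in CO mice 1 to 5. For Cd2, CO mouse 4 was thus not the highest. Of 14 NK and cytotoxic genes 0 were called, the median was -0.11 and only 2 exceeded 3 counts in any mouse. In this list 7 genes, among them the pore-forming Prf1 and the receptor chain Il2rb, were listed at 0 in all mice.

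Of 22 antigen receptor signalling genes, Pik3ap1, an adaptor of phosphoinositide 3-kinase in B cells, was called higher in the FO group (edgeR log2 fold change 2.27, standard error 1.04, adjusted p = 0.905). It had 4, 5, 1, 4 and 1 counts in FO mice 1 to 5 and 2 counts in CO mouse 4, with the other CO mice at 0, so the CO group was wholly under the floor and the fitted fold change is uncertain. The list had a median of 0.25. The kinase Fyn, one of the 5 that passed the filter, had 53.9 ± 11.9 CPM with FO and 36.6 ± 8.00 CPM with CO and was called in the filtered fit (log2 fold change 0.61, standard error 0.27, edgeR unadjusted p = 0.0392) but not in that of genes with any count (edgeR unadjusted p = 0.0664). Prkcb, a kinase downstream of the B cell receptor, had 29.5 ± 15.2 and 31.9 ± 20.0 CPM.

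Of 20 pan-leukocyte genes, the phosphatase Ptpn7 was called lower in the FO group, at 18.3 ± 7.21 against 38.4 ± 29.0 CPM (log2 fold change -0.89, standard error 0.41, edgeR adjusted p = 0.905), and the median was 0.01. The actin-bundling Lcp1 had 77.6 ± 18.5 CPM with FO and 83.4 ± 24.9 CPM with CO, and the lysosomal Laptm5 had 90.2 ± 40.0 and 65.8 ± 18.3 CPM. Of 12 genes of the lymphotoxin pathway and of lymphoid chemokines, Cxcl13, which attracts B cells, was called higher in the FO group, and Cxcl12, which retains leukocytes in tissue, was called lower. Cxcl13 was counted 1, 2, 1, 13 and 1 times in FO mice 1 to 5 and 1 time in CO mouse 2 with the other CO mice at 0, and FO mouse 4 alone exceeded the floor. Cxcl12 had 123.0 ± 67.4 CPM with FO and 197.9 ± 50.1 CPM with CO (log2 fold change -0.60, standard error 0.28, edgeR adjusted p = 0.905), and in the fit past the filter, which it also passed, it was not called (edgeR unadjusted p = 0.0522). The study picked out Cxcl13 and Cxcl12 on these mice, so their direction is not independent evidence. The lymphotoxin receptor Ltbr, through which Ltb acts, had 23.7 ± 6.34 CPM with FO and 23.4 ± 10.3 CPM with CO.

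**Figure D5:**
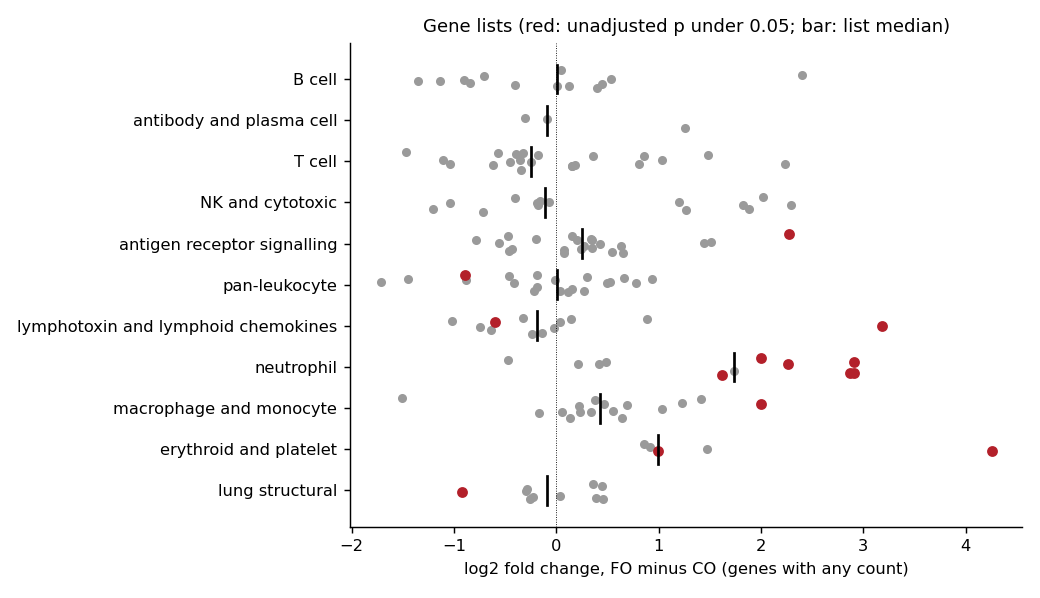
Log2 fold change of FO against CO (horizontal axis) for the genes with any count in 11 lists, with genes at an unadjusted edgeR p under 0.05 in red, other genes in grey and the list median as a bar. The medians of the 7 lymphocyte and leukocyte lists lie between -0.25 and 0.25, and the neutrophil list has 6 red points at higher values.

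Markers of other cells were measured beside these lists. Of 16 macrophage and monocyte genes 1, Cd68, a lysosomal protein, was called higher in the FO group (edgeR adjusted p = 0.905). It had 7, 6, 0, 2 and 3 counts in FO mice 1 to 5 and 0, 0, 1, 2 and 0 in CO mice 1 to 5. The CO group was thus wholly under the floor. Cd68 did not pass the filter and was not called by DESeq2 (unadjusted p = 0.088). The median log2 fold change of the list was 0.42, and Lyz2, lysozyme, had 243.5 ± 101.6 CPM with FO and 182.6 ± 105.4 CPM with CO. Of 10 structural genes of lung with a count, the tight junction gene Cldn18 was called lower in the FO group among genes with any count but not past the filter (edgeR unadjusted p = 0.102) or by DESeq2 (unadjusted p = 0.230), and the list median was -0.09. CO mouse 4 had 740 Cldn18 counts, or 263.6 per 100000 outside Rn45s, against at most 101.0 in any other. Of 4 thymocyte genes, Rag1, Rag2 and Ptcra were listed at 0, and Dntt had 1 count in 1 mouse. The part of these cells in the values of the 10 genes was not tested.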

How the data were processed

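Whole-lung RNA of 10 mice, 5 fed FO and 5 fed CO, was sequenced as single-end reads. Per the labels and methods the authors used TruSeq RNA v2 or riboZero libraries, aligned reads with STAR 2.4.0f1 to mm10, used SAMtools 0.1.19 and counted with htseq-count. Which mouse had which kit, the annotation and the strand setting are not given in the sources used here. The deposited values are raw counts per gene symbol, without normalization. Totals ranged from 229766 to 1124963 per mouse. The TMM scaling factors ranged from 0.448 in FO mouse 3 to 3.21 in CO mouse 4. After this scaling 1 count stood for 0.764 CPM in FO mouse 2 to 6.65 CPM in CO mouse 1. No 2 mice had identical counts.

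The quasi-likelihood test of edgeR 4.0.16 (R 4.3.3) was run after TMM scaling and the default filter (minimum count 10, minimum total 15). Genes were called at an unadjusted p-value under 0.05, the threshold of the methods of the study, with Benjamini-Hochberg adjusted p-values over all genes tested in a fit beside it. Single genes were also compared with exact permutation tests on mean CPM over 252 assignments of the mice, two-sided, without adjustment. The mice are separate animals and the diets were compared over mice. Alternatives were DESeq2 1.42.0, other scalings and filters, Rn45s left out, robust estimation, a replicate block and mice left out. The fits were tested on simulated data. The members, lists and tests were chosen with earlier results of these data known. Named genes were the 10 members, up to 4 genes per list called at an unadjusted p-value under 0.05, the 2 per list with the highest mean CPM, and Rn45s and Malat1. Actb, Gapdh, Prf1, Il2rb, Bola2, Rag1, Rag2 and Ptcra were added to that rule with their values known. Positions are those of GENCODE M21 on GRCm38, the build that mm10 names. Promoter windows are from RefSeq.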

Additional observations from a re-analysis of the deposited data

How the results depend on the processing

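The number of genes called, 71 past the filter, was 36 with library size alone (1 higher and 35 lower in the FO group, against 41 and 30), 15 with a filter of 10 counts in each mouse, 587 among all genes with any count, and 54 to 154 with each mouse left out in turn (154 without FO replicate 2). Of the 10 members 0 were called in every alternative except library size alone, which called 1, Cd79a, and 0 to 0 with a mouse left out. Of the 105 list genes 4 were called, 2 of them by DESeq2 and 2 to 6 with a mouse left out (2 without CO replicate 5). Same-numbered mice are different animals, and their deviations from the group means correlated at -0.12 on average (-0.41 to 0.03 over 5 pairs). Fitted with the replicate number as a block, 55 genes were called past the filter and 183 among genes with any count, and 0 members. Signs of members turned with library size alone for Ltb (-0.36), Ptprc (-0.41) and Coro1a (-0.21), where the median of all genes moved to -0.43 with any count and -0.55 past the filter. Without FO mouse 2 and CO mouse 5 Ltb was -0.17. With a mouse left out, Ltb ranged from -0.075 to 0.97, Gzma from -0.53 to 0.043 and Ptprc from -0.10 to 0.80. Cd79b and Ms4a1 stayed negative in all alternatives run, from -1.80 to -0.43 and from -0.99 to -0.06, and were not called in any. Coro1a passed the filter in 7 of the 10 fits without a mouse and ranged there from 0.26 to 0.52. The alternatives for members that failed the filter were run on all genes with any count, a base chosen after seeing the data. No member reached 10 counts in every mouse, so that filter gave no value for members. The causes of these changes were not tested. Depth limits 4 of the 10 members to at most 3 counts per mouse.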
